A study of Mus musculus with 36 samples.

Results

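The 7 genes described here, *Mup1*, *Mup3*, *Mup7*, *Mup11*, *Mup14*, *Mup15* and *Mup19*, encode major urinary proteins, and were taken as the entries of the deposited expression table whose Ensembl gene ID maps to one of these symbols. All 7 were found among the 24750 genes of the table, which holds 25 *Mup* entries in all, and all 7 passed the filter on low values. The genes were selected on values of these same libraries, with their levels beside *Alb* and a difference in *Mup7* between ligatured 60% HFD mice of the 2 genotypes already known, so the values below are descriptions and the p-values are no independent support. RNA was sequenced from epididymal white adipose tissue (eWAT) of 36 male mice, 3 in each of 12 groups, which combined 2 genotypes, 3 diets and the presence or absence of a ligature. WT mice were C57BL/6. CCL19-KI mice, kept as a homozygous line and bred apart from the WT mice, carry *Ccl19* knocked into the *Adipoq* locus, so that the chemokine is made by adipocytes. Mice received a normal diet (ND), a diet with 40% fat (40% HFD) or one with 60% fat (60% HFD) for 10 weeks. In 18 mice a thread was tied around molars to induce periodontitis at 14 weeks of age and was kept for 2 weeks, the other 18 had no ligature, and eWAT without its lymph nodes was collected at 16 weeks. The labels number the 3 samples of a group as separate mice, and p-values measure the spread between them.

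Major urinary proteins are small lipocalins, barrel-shaped carriers of hydrophobic molecules. They are made by hepatocytes, secreted into the blood and filtered into urine, where they bind and slowly release male odorants. Their liver transcripts are more abundant in male than in female mice and depend on pulses of growth hormone acting through STAT5 in hepatocytes. *Alb* encodes albumin, the main plasma protein of hepatocytes, and was used here as the measure of liver-type RNA in each eWAT library.

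All 7 genes lie on the minus strand of chromosome 4 (GRCm38), within 2.02 Mb, in an array of near-copies. *Mup7* is at chr4:60066469-60070475, *Mup1* at chr4:60498012-60501960, *Mup11* at chr4:60658466-60662411, *Mup14* at chr4:61300023-61304000, *Mup15* at chr4:61435790-61439743, *Mup19* at chr4:61778324-61782269 and *Mup3* at chr4:62083476-62087342. *Mup3*, at one end, was the most distinct in sequence. Its longest coding transcript was 69.9 to 73.0% identical to those of the other 6 genes, whereas the 15 pairs among those 6 were 94.3 to 99.5% identical. Of all 31-base words in the transcript, 28.8% of those of *Mup3* also occurred in another *Mup* transcript, against 90.5% for *Mup7*, 92.9% for *Mup11*, 98.4% for *Mup1*, 99.8% for *Mup14* and 100% for *Mup15* and *Mup19*. Reads of the 6 similar genes can thus match several of them, and the values of single genes other than *Mup3* are uncertain, since they depend on how the authors' counting shared such reads.

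Promoter windows from RefSeq (GRCm38.p6) were matched for 6 of the 7 genes. Their annotated starts can differ from the gene coordinates above, and for *Mup3* and *Mup15* the bases shown reach into the genes as given there. The 250 bases before the annotated start are shown for *Mup3*, *Mup7* and *Mup15*, which behaved most differently in the libraries, 5′ to 3′ on the minus strand, with the motifs ATCAAT (the core bound by ONECUT factors of hepatocytes) and TATATAA, a form of the promoter box near the start of many genes, in capitals.
Mup3, chr4:62087318-62087567: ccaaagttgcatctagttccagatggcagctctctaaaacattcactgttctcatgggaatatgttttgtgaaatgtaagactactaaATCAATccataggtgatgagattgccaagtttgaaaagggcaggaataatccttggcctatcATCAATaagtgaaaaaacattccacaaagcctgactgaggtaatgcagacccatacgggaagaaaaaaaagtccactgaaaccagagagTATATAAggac
Mup7, chr4:60070476-60070725: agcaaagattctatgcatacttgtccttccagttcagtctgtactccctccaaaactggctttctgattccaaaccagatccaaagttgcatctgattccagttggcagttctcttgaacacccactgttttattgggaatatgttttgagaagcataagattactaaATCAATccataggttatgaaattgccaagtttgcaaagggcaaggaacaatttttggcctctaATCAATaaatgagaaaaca
Mup15, chr4:61439705-61439954: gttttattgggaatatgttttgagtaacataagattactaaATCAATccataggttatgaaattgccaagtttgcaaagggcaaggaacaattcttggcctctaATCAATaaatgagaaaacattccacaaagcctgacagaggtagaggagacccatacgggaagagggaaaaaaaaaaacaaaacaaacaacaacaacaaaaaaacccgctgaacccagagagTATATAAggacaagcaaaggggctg
ATCAAT occurred at 2 places in each of the 6 windows of 300 bases (250 before the start and 50 after it), on the strand of the gene, and was found on either strand in 7.54% of 32851 promoter windows of the genome. TATATAA was found in 5 of the 6 windows, against 3.24% of all windows. The exception was *Mup7*, whose window ends before the stretch that holds TATATAA in the others, so its absence there cannot be read. The STAT5 core TTCNNNGAA was in none of the 6 and in 8.30% of all windows. The 2 copies of ATCAAT sat at different distances from the annotated start (-162 and -100 in *Mup3*, -82 and -19 in *Mup7*, -209 and -146 in *Mup15*), so the windows cover different stretches of one shared upstream block. Over the aligned bases, the windows of *Mup7* and *Mup15* were 97.7% identical, that of *Mup3* 84.1% identical to *Mup7* and 77.3% identical to *Mup15*.

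Levels are given in normalized CPM (reads scaled to a common library size) as deposited. The libraries held 11962228 to 21581595 reads, and 1 read was worth 0.0472 to 0.0834 CPM, so 3 reads corresponded to 0.142 to 0.250 CPM. *Alb* split the libraries into 2 sets with nothing between. It was 5.55 to 13.4 CPM (102 to 268 reads) in 6 libraries, namely the 3 unligatured ND WT mice, ligatured ND CCL19-KI mice 2 and 3 and unligatured 60% HFD CCL19-KI mouse 3, and 267 to 26901 CPM in the other 30. The sum of 8 hepatocyte markers was 8.85 to 14.8 CPM in the 6 libraries and 417 to 36959 CPM in the 30. The 5 adipocyte markers, which define the labelled tissue, summed to 3727 to 21500 CPM over all 36. In bulk tissue, fewer cells of a type cannot be told apart from less RNA per cell.

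The 7 *Mup* genes were near absent from the 6 libraries with little *Alb* and abundant in most of the others. In the 6 libraries no member exceeded 4.95 CPM, the value of *Mup19* in unligatured ND WT mouse 1, and each member was at 0 in 1 to 3 of them. In the 30 libraries the median was 982 CPM for *Mup19*, 697 for *Mup7*, 579.7 for *Mup11*, 544 for *Mup3*, 282 for *Mup14*, 97.8 for *Mup1* and 79.5 for *Mup15*. Per kb of transcript, the order of the medians was *Mup19* (1059 CPM per kb), *Mup7* (674), *Mup11* (623), *Mup3* (553), *Mup14* (305), *Mup1* (106) and *Mup15* (85.9). The ranges over libraries overlapped for every pair of neighbours in this order. Together the 7 genes took from 3.07e-05% of all reads in ligatured ND CCL19-KI mouse 2 to 2.44% in unligatured 40% HFD WT mouse 3.

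*Mup3* was measured in every group as follows. In ND mice it was 0.652, 0.111 and 0.750 CPM in unligatured WT, 301, 464 and 51.3 CPM in ligatured WT, 39.4, 727 and 1833 CPM in unligatured CCL19-KI and 244, 0 and 1.23 CPM in ligatured CCL19-KI mice. In 40% HFD mice it was 1788, 581 and 2664 CPM in unligatured WT, 531, 19.5 and 826 CPM in ligatured WT, 468, 2213 and 1511 CPM in unligatured CCL19-KI and 321, 1730.05 and 153 CPM in ligatured CCL19-KI mice. In 60% HFD mice it was 475, 1544 and 1814 CPM in unligatured WT, 947, 558 and 1284 CPM in ligatured WT, 15.2, 32.0 and 0.687 CPM in unligatured CCL19-KI and 957, 478 and 77.8 CPM in ligatured CCL19-KI mice. Every diet thus had high libraries, the lowest values were in the libraries with little *Alb*, and within most groups the 3 mice differed severalfold.

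*Mup7* reached higher peaks and lower troughs. In ND mice it was 0.163, 0.111 and 0 CPM in unligatured WT, 55.8, 116 and 60.0 CPM in ligatured WT, 84.2, 1358 and 5886 CPM in unligatured CCL19-KI and 260.4, 0 and 0 CPM in ligatured CCL19-KI mice. In 40% HFD mice it was 4931, 1965 and 7196 CPM in unligatured WT, 1988, 65.2 and 1779.8 CPM in ligatured WT, 1093, 3623 and 2627 CPM in unligatured CCL19-KI and 59.1, 713 and 203 CPM in ligatured CCL19-KI mice. In 60% HFD mice it was 576, 3202 and 2419.8 CPM in unligatured WT, 2698, 681 and 1228 CPM in ligatured WT, 1.82, 1.23 and 2.36 CPM in unligatured CCL19-KI and 450.3, 37.9 and 28.4 CPM in ligatured CCL19-KI mice. In 60% HFD mice of both ligature states all CCL19-KI values lay below all WT values, in unligatured ND mice all CCL19-KI values lay above, and in 40% HFD mice and ligatured ND mice the genotypes overlapped. The difference in ligatured 60% HFD mice (log2 -4.03) was known when the genes were chosen, so it is given as a description, with no test.

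*Mup15*, nearly identical to its neighbours in sequence, was the member that differed most between the 40% and the 60% HFD. In ND mice it was 0.326, 0 and 0 CPM in unligatured WT, 33.2, 52.3 and 2.63 CPM in ligatured WT, 25.9, 138 and 1862 CPM in unligatured CCL19-KI and 38.1, 0 and 0.123 CPM in ligatured CCL19-KI mice. In 40% HFD mice it was 1770.1, 848 and 2209 CPM in unligatured WT, 607, 19.3 and 579 CPM in ligatured WT, 363, 1344 and 651 CPM in unligatured CCL19-KI and 10.7, 261 and 36.0 CPM in ligatured CCL19-KI mice. In 60% HFD mice it was 63.0, 292 and 215 CPM in unligatured WT, 278, 50.8 and 96.0 CPM in ligatured WT, 0.568, 1.59 and 1.62 CPM in unligatured CCL19-KI and 43.8, 21.2 and 5.36 CPM in ligatured CCL19-KI mice. Without a ligature, all 40% HFD values lay above all 60% HFD values in both genotypes, and with a ligature the diets overlapped. In the unligatured CCL19-KI mice *Alb* was separated in the same way (3877 to 23726 against 6.38 to 890 CPM), as was *Mup3*. In the unligatured WT mice the *Alb* ranges of the 2 diets overlapped (5009 to 19185 and 5796 to 24132 CPM).

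**Figure D1:**
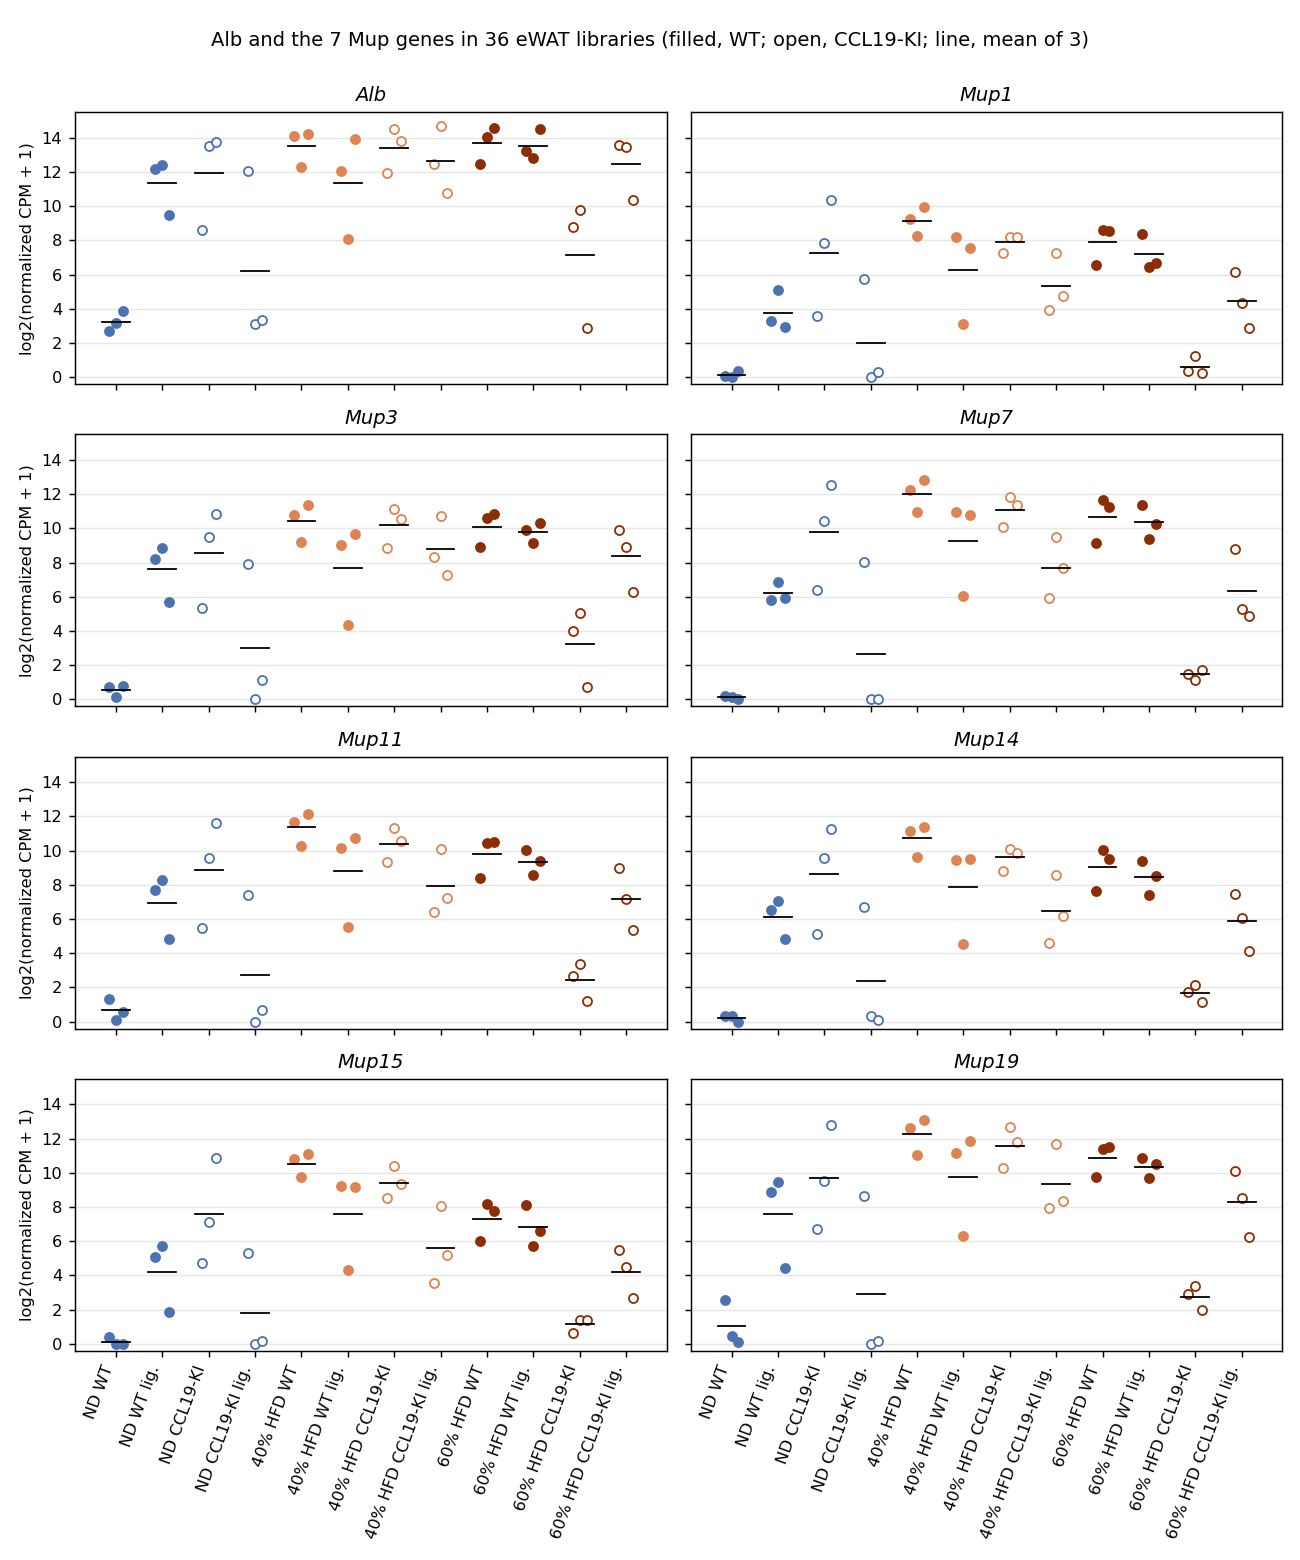
Levels of *Alb* and of the 7 *Mup* genes in the 36 eWAT libraries, as log2(normalized CPM + 1), with 1 point per mouse (filled for WT, open for CCL19-KI), a line at each mean of 3 and the 12 groups along the horizontal axis (lig., ligatured). The 6 libraries with *Alb* of 5.55 to 13.4 CPM are those in which every member was at or below 4.95 CPM.

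The first question was whether the members follow liver RNA. *Mup3* followed *Alb* closely and the other 6 followed it loosely. Over the 30 libraries with at least 100 CPM of *Alb*, Pearson's r between log2 levels was 0.971 for *Mup3*, 0.865 for *Mup19*, 0.859 for *Mup11*, 0.808 for *Mup14*, 0.798 for *Mup1*, 0.752 for *Mup7* and 0.724 for *Mup15*. These are descriptions over libraries that share a normalization, and the 2 sets of libraries were not pooled, since their separation alone would give a high r. The ratio to *Alb* showed the difference more directly. It varied 3.83-fold over the 30 libraries for *Mup3*, 22.9-fold for *Mup11*, 42.5-fold for *Mup14*, 45.6-fold for *Mup19*, 52.4-fold for *Mup1*, 84.9-fold for *Mup15* and 189-fold for *Mup7*.

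Plasma protein genes of hepatocytes held a far steadier ratio to *Alb* than most members did. The SD of the log2 ratio to *Alb* had a median of 0.28 over 25 such genes, whose median r with *Alb* was 0.990. It was 0.52 for *Mup3*, above 23 of the 25, and 1.31 for *Mup11*, 1.44 for *Mup19*, 1.55 for *Mup14*, 1.58 for *Mup1*, 2.02 for *Mup15* and 2.10 for *Mup7*, with *Mup7* above all 25. The 2 plasma protein genes with wider ratios than *Mup3* were *Trf* (transferrin, 1.43) and *Rbp4* (retinol-binding protein, 1.29), named after their values were seen. Their log2 levels rose by only 0.28 and 0.36 per unit of log2 *Alb*, against 1.06 for *Mup3*. Which cells gave their RNA was not tested. The median SD was 0.71 over 20 hepatocyte enzyme genes, 1.302 over 22 genes known as male-biased and growth hormone dependent in liver (*Mup20* and *Mup21* of the same family among them), 1.81 over 17 female-biased liver genes and 1.48 over the 14 other *Mup* genes that passed the filter.

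**Figure D2:**
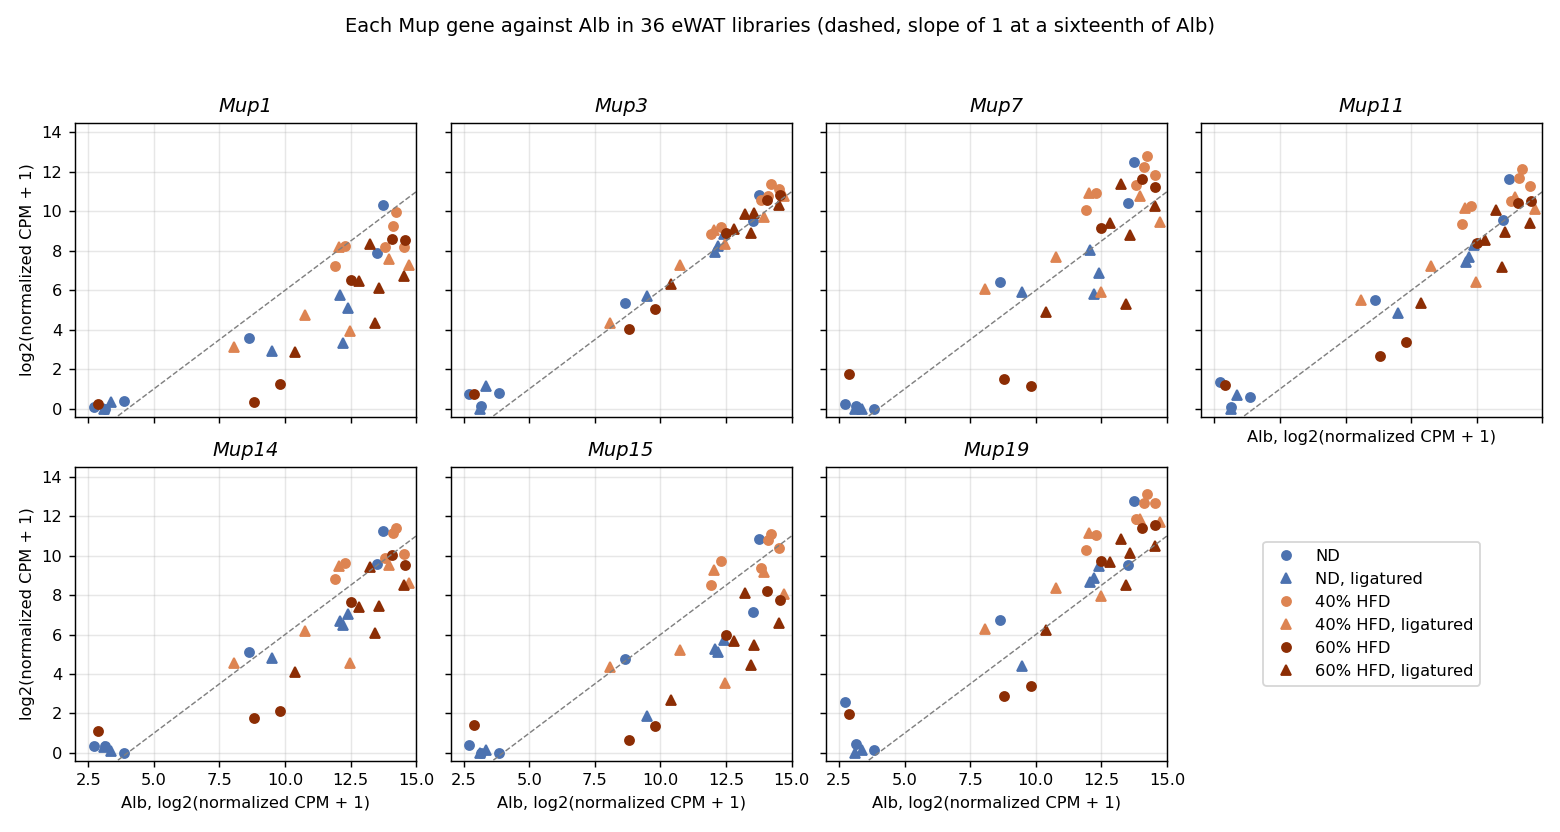
Levels of the 7 *Mup* genes against *Alb* in the 36 libraries, both as log2(normalized CPM + 1), with 1 panel per gene, colours for the diets, triangles for ligatured mice and a dashed line of constant ratio. *Mup3* (r 0.971 over 30 libraries) stays near a line of constant ratio, whereas *Mup7* (r 0.752) and *Mup15* (r 0.724) scatter widely around one.

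**Figure D3:**
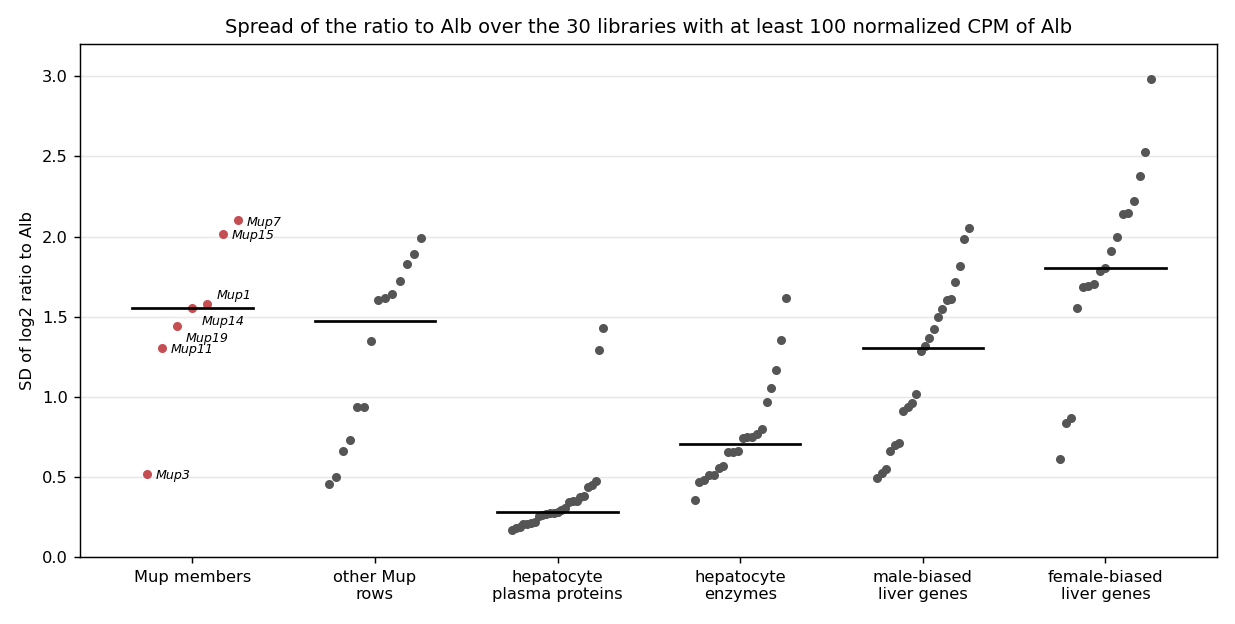
SD of the log2 ratio to *Alb* over 30 libraries for the 7 members, the other *Mup* genes and 4 lists of liver genes, with 1 point per gene and a line at each median. *Mup3* (0.52) sits just above most plasma protein genes (median 0.28), and *Mup7* (2.10) and *Mup15* (2.02) near or above the highest of the male-biased genes.

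The members moved together beyond *Alb*. After log2 *Alb* was regressed out over the 30 libraries, r between members was 0.850 to 0.971 for the 15 pairs without *Mup3* and 0.827 to 0.886 for the 6 pairs with it. The near-identical genes share reads, which bears on the first range more than on the second. Against the summed members, also with *Alb* regressed out, the median r was 0.61 over the 22 male-biased liver genes (range 0.0995 to 0.853), 0.39 over the 25 plasma protein genes, 0.17 over 20 hepatocyte enzymes, 0.17 over 23 genes of growth hormone receptor signalling and -0.32 over the 17 female-biased genes (range -0.66 to 0.0893). The members' variation apart from *Alb* thus ran with that of many genes on the male-biased list and opposite to that of many on the female-biased list. An example of the latter is *Cyp2b9* (r -0.66), a drug-metabolising enzyme, here named after its value was seen. *Mup20* (r beyond *Alb* 0.73) and *Mup21* (0.46), of the same family, are themselves on the male-biased list. Some genes of both lists followed *Alb* little, such as *C6* (r with *Alb* 0.34) and *Atp6v0d2* (0.13), or were near the floor, such as *Cyp2b13* (median 0.0742 CPM). Whether the shared variation was that of liver RNA was not tested. The median r beyond *Alb* was 0.07 over 15 adipocyte genes and -0.15 over 10 macrophage genes.

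The genes outside the family that were most like the summed members over the 36 libraries, beyond *Alb*, were *Serpina1e*, *Serpina1c*, *Slco1a1*, *Serpina3k*, *1700020I14Rik*, *C8a*, *C6*, *AC127342.1*, *Cyp7b1* and *Hsd3b5*. Over the 30 libraries the r beyond *Alb* was 0.769 for *Serpina1e*, an alpha-1-antitrypsin gene, 0.851 for *Slco1a1*, an organic anion transporter, 0.853 for *C8a*, a component of complement, 0.755 for *Cyp7b1*, an oxysterol hydroxylase, and 0.667 for *Hsd3b5*, a steroid dehydrogenase. Of these 10 genes, 6 are on the list of male-biased liver genes. By level alone, the 10 most alike genes were *Serpina3k* (r 0.975 over 36 libraries, 0.926 over 30), *C8a*, *Serpina1c*, *Serpina1a*, *Cyp2d9*, *Ahsg*, *Mug1*, *Serpina1b*, *Serpina1d* and *Sult2a8* (r 0.964 and 0.912), all of which liver expresses strongly.

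As a percent of *Alb*, the members' medians were highest in the 40% HFD mice when both genotypes were pooled. *Mup15* was 0.188 to 16.9% of *Alb* in the 12 40% HFD libraries (median 6.44%), 0.128 to 2.87% in 11 60% HFD libraries (median 0.407%) and 0.366 to 13.6% in 7 ND libraries (median 0.964%). Its median was 15.8 times as high under the 40% as under the 60% HFD, and 9 of the 12 40% HFD libraries lay above all 11 60% HFD libraries. *Mup19* had medians of 28.1%, 9.03% and 9.77% under the 40% HFD, 60% HFD and ND, with 9 of 12 40% HFD libraries above all 60% HFD ones. *Mup7* ranged from 1.04 to 47.1% under the 40% HFD (median 21.3%), from 0.138 to 27.9% under the 60% HFD (median 5.20%) and from 1.18 to 43.0% under the ND (median 8.35%). Its diets overlapped more, with 4 of 12 40% HFD libraries above all 60% HFD ones. *Mup3* moved least, with medians of 9.71%, 7.52% and 7.15%, and a ratio of 1.29 between the 40% and the 60% HFD. Small as this shift was, 6 of 12 40% HFD libraries of *Mup3* lay above all 60% HFD ones. For *Mup1*, *Mup11* and *Mup14* this ratio was 4.33, 3.35 and 4.81. Against the ND, the order differed between the WT and the CCL19-KI libraries, but these sets were unlike in ligature state. The 3 WT ND libraries were all ligatured. Of the 4 CCL19-KI ND libraries, 3 were unligatured and 1 was ligatured. Genotype and ligature state thus cannot be told apart in this comparison. In WT mice the median of *Mup7* was 32.7% under the 40% HFD (6 libraries) and 2.15% under the ND (3 libraries), whereas in CCL19-KI mice it was 13.5% (6 libraries) and 16.4% (4 libraries). The medians of *Mup1*, *Mup14* and *Mup15* in CCL19-KI mice were also higher under the ND (2.38, 7.43 and 3.85%) than under the 40% HFD (1.36, 4.38 and 3.30%).

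Mice 1 and 2 of one group had some of the lowest ratios to *Alb*. For *Mup1*, *Mup3*, *Mup11*, *Mup15* and *Mup19* theirs were the 2 lowest of the 30 libraries. In unligatured 60% HFD CCL19-KI mice 1 and 2, where *Alb* was 444 and 889.6 CPM, *Mup7* was 0.409 and 0.138% of *Alb*, *Mup15* 0.128 and 0.178% and *Mup3* 3.41 and 3.60%. Their *Alb* was low but above that of ligatured 40% HFD WT mouse 2 (267 CPM), in which *Mup7* was 24.4% and *Mup15* 7.22% of *Alb*. Among 40% HFD mice the lowest was ligatured CCL19-KI mouse 1, with *Mup7* at 1.04% and *Mup15* at 0.188% of an *Alb* of 5674 CPM. Among ND mice the highest was unligatured CCL19-KI mouse 3, with *Mup7* at 43.0% and *Mup15* at 13.6%.

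**Figure D4:**
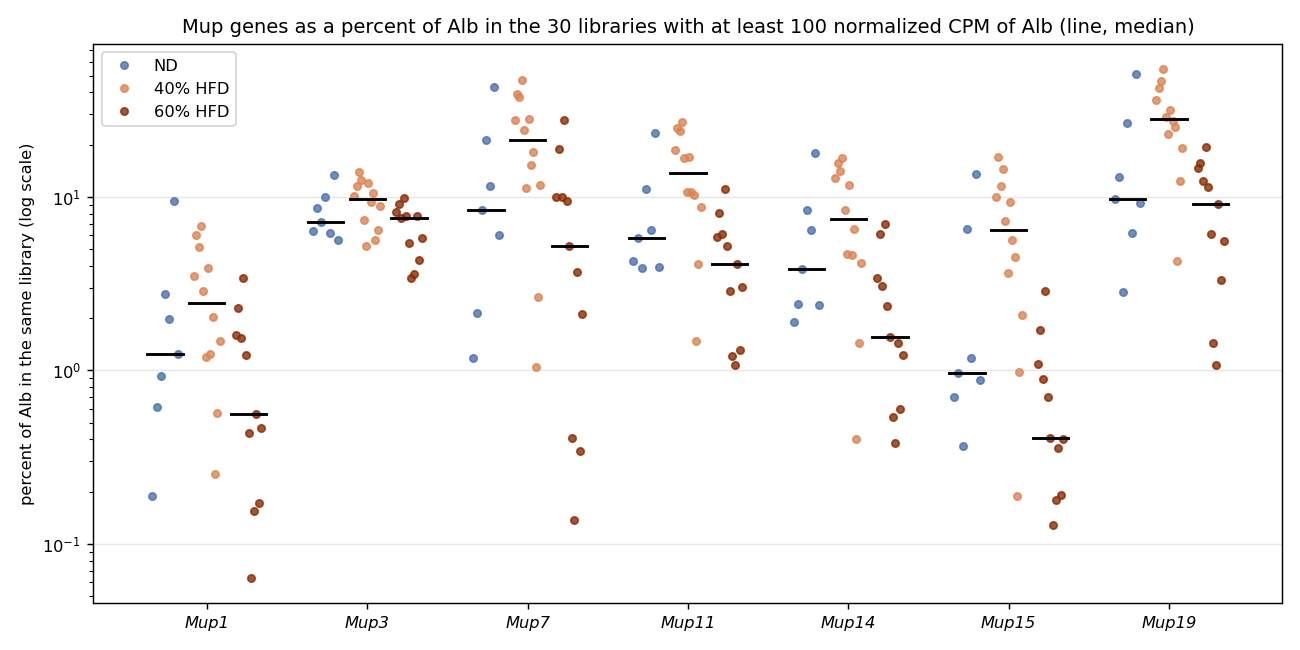
Each member as a percent of *Alb* in the same library (log axis), for the 30 libraries with at least 100 CPM of *Alb*, by diet, with 1 point per library and a line at each median. The 40% HFD median of *Mup15* (6.44%) lies far above that of the 60% HFD (0.407%), whereas the medians of *Mup3* lie between 7.15 and 9.71%.

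Diets were then compared in a fit of all 36 libraries (limma on log2(CPM + 1), 12 group means, averaged over genotype and ligature, Benjamini-Hochberg adjustment over 17852 genes). Under the 40% HFD all 7 members rose relative to the ND, by log2 3.85 (*Mup1*, SE 0.71) to 5.43 (*Mup19*, SE 0.90), with limma's adjusted p from 0.00102 to 0.0040. In this comparison 9.21% of all genes passed, 5.36% upward, and the median over all genes was -0.02 against 4.82 over the members. *Alb* rose alike, by 4.55 (SE 0.95, limma's adjusted p = 0.00676), as did 25 of 26 plasma protein genes, of which the median was 3.75. Of the 12 ND libraries, 5 were among the 6 with little *Alb*. What brought *Alb* and *Mup* RNA into the eWAT libraries was not tested. In the 30 libraries with at least 100 CPM of *Alb*, differences were 1.10 (*Mup3*) to 2.20 (*Mup15*) and no member passed (limma's adjusted p 0.219 to 0.562).

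Under the 60% HFD, 4 of 7 members rose relative to the ND, *Mup3* by log2 2.94 (SE 0.82), *Mup19* by 2.76 (SE 0.90), *Mup7* by 2.51 (SE 0.80) and *Mup11* by 2.38 (SE 0.80), with limma's adjusted p from 0.0156 to 0.0381, where 18.6% of all genes passed, 10.2% upward. *Mup14* (1.93), *Mup1* (1.73) and *Mup15* (1.43) did not pass. *Alb* rose by 3.53 (limma's adjusted p = 0.0132). In the 30 libraries no member passed, and 6 of the 7 differences were below 0, from 0.35 (*Mup3*) down to -0.89 (*Mup15*). The edgeR test on the recovered reads passed 1 member, and leaving out 1 library at a time gave 7 members without ligatured ND CCL19-KI mouse 1 and 1 or 2 without any of unligatured ND WT mice 2 and 3, ligatured ND WT mouse 3, unligatured ND CCL19-KI mouse 1, ligatured ND CCL19-KI mice 2 and 3, unligatured 60% HFD WT mice 2 and 3, ligatured 60% HFD WT mouse 1 and ligatured 60% HFD CCL19-KI mouse 1.

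Between the 2 high-fat diets, the differences of all 7 members were below 0 under the 60% HFD, although *Mup1*, *Mup3* and *Mup14* were above 0 in ligatured mice alone and *Mup3* in WT mice alone, and *Mup15* passed the test. It fell by 3.42 on the log2 scale (SE 0.73, limma's adjusted p = 0.0230), where 0.745% of all genes passed, 0.28% downward. By criteria without adjustment (p of 0.05 or less, and a ratio of 1.5 or more in either direction, taken as 0.67 downward), 6 of 7 members were lower, against 0.667% of all genes. *Alb* differed by -1.03 (limma's adjusted p = 0.673), and 0 of 26 plasma protein genes passed, with a median of -0.83. *Mup15* no longer passed without unligatured 60% HFD WT mouse 1 or ligatured 60% HFD WT mouse 2 (limma's adjusted p up to 0.0618), without the 6 libraries low in *Alb* (0.0900), or in the 18 ligatured, 18 WT or 18 CCL19-KI mice alone, where the difference was -1.09, -2.01 and -4.83.

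When log2 *Alb* was added to the fit as a covariate, the contrast between the high-fat diets was the one in which members still passed. At equal *Alb*, *Mup15* fell by 2.83 (SE 0.49, limma's adjusted p = 0.00858), *Mup14* by 1.70 (SE 0.40, 0.0467) and *Mup11* by 1.67 (SE 0.36, 0.0278) from the 40% to the 60% HFD, where 0.616% of all genes passed, 0.252% downward. *Mup7* (-2.13, limma's adjusted p = 0.0540), *Mup19* (-1.83, 0.0636), *Mup1* (-1.50, 0.0974) and *Mup3* (-0.54, 0.230) did not. By the edgeR test with the same covariate *Mup15* passed, *Mup14* and *Mup11* did not, and 1 other member did. The median by limma was -1.70 over the members and 0.02 over all genes. Of 25 plasma protein genes 0 passed and their median was 0.01, and of 22 male-biased liver genes 0 passed with a median of -0.36 and 18 of 22 below 0. Among 17 female-biased genes 1 passed upward and the median was 0.33. *Mup15* passed without each of the 36 libraries in turn (limma's adjusted p up to 0.0287) and in the 30 libraries (0.00261). In the ligatured, unligatured and CCL19-KI mice taken alone it differed by -1.79, -4.65 and -3.22 and did not pass, and in WT mice it fell by 3.03 (limma's adjusted p = 0.0324).

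How many members passed at equal *Alb* depended on single libraries and on how *Alb* entered. It was 5 without unligatured ND WT mouse 1 and 6 without unligatured 60% HFD CCL19-KI mouse 3, both low in *Alb*. It was 1 without any of unligatured 40% HFD CCL19-KI mouse 1, ligatured 40% HFD CCL19-KI mouse 3, unligatured 60% HFD WT mouse 1, ligatured 60% HFD WT mice 2 and 3 and ligatured 60% HFD CCL19-KI mouse 2. With the ratio to *Alb* in place of the covariate the differences were all below 0, from -0.37 to -2.39, and no member passed. Both fits gave the 6 libraries low in *Alb* the same weight as the others, and why their calls differed was not tested.

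**Figure D5:**
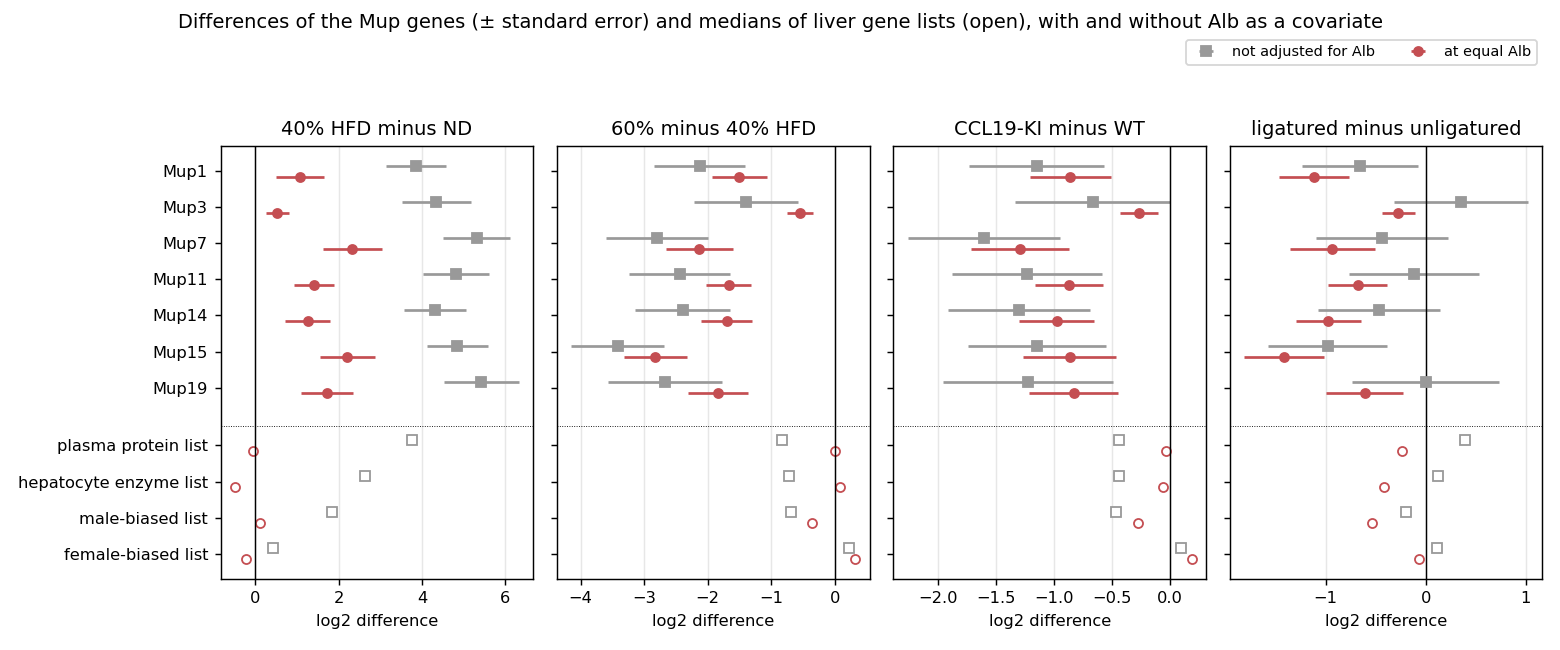
Log2 differences (points, with bars of 1 SE) of the 7 members between diets, genotypes and ligature states in 36 libraries, without (grey squares) and with (red circles) log2 *Alb* as covariate, and below them the medians of 4 lists of liver genes (open). Between the high-fat diets *Mup15* differs by -3.42 without and -2.83 with the covariate, whereas the rise from the ND to the 40% HFD of 3.85 to 5.43 shrinks to between 0.53 and 2.33.

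Compared with the ND at equal *Alb*, no member passed under the 40% HFD, where 1.32% of all genes passed, although all 7 differences were above 0, from 0.53 (*Mup3*) to 2.33 (*Mup7*, SE 0.70, limma's adjusted p = 0.0890) and 5 of 7 had an unadjusted p below 0.05 (*Mup15* 2.21, adjusted p = 0.0861). With the ratio to *Alb* in place of the covariate, *Mup1* (-0.70), *Mup14* (-0.24) and *Mup3* (-0.21) were below 0. The edgeR test with the same covariate passed 0. *Mup7* passed without ligatured ND CCL19-KI mouse 1 (adjusted p = 0.0299) and *Mup15* without ligatured 40% HFD WT mouse 2 (0.0414). Under the 60% HFD the differences from the ND were -0.61 (*Mup15*) to 0.20 (*Mup7*), and 0 of 7 passed where 9.5% of all genes did, with 0 of 7 at an unadjusted p below 0.05 and 0 by edgeR.

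Between genotypes, 0 of 7 members passed over all 36 mice (0.459% of all genes passed), 0 by edgeR, and 2 had an unadjusted p below 0.05. All 7 differences were below 0, from -0.67 (*Mup3*, which was 0.36 by edgeR) to -1.60 (*Mup7*, SE 0.66, limma's adjusted p = 0.210), and *Alb* differed by -0.48 (adjusted p = 0.791). *Mup7* passed without ligatured ND CCL19-KI mouse 1 (adjusted p = 0.0424). At equal *Alb* 0 of 7 passed (0.437% of all genes), 0 by edgeR and 6 with an unadjusted p below 0.05, with differences of -0.27 (*Mup3*) to -1.29 (*Mup7*, limma's adjusted p = 0.139). Without unligatured 60% HFD CCL19-KI mouse 3, a library of few *Alb* reads, 6 members passed, all lower in CCL19-KI mice, and 5.59% of all genes did. These contrasts include the ligatured 60% HFD mice, whose difference in *Mup7* was known.

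Examined after the data had been seen, the genotype difference of *Mup7* at equal *Alb* in unligatured mice was 3.93 (SE 1.37, limma's adjusted p = 0.135) under the ND and was -4.93 (SE 1.23, 0.0714) under the 60% HFD, neither of which passed, where 0.515% and 0.252% of all genes did. No test of the difference between the diets is given, since the one made includes the ligatured 60% HFD mice. The 3 unligatured ND WT libraries held 3, 2 and 0 reads of *Mup7*. In these unligatured mice the *Alb* ranges of the genotypes did not overlap under either diet. Under the ND they were 5.55 to 13.4 CPM in WT and 397 to 13696 CPM in CCL19-KI mice. Under the 60% HFD they were 5796 to 24132 CPM in WT and 6.38 to 890 CPM in CCL19-KI mice. Both differences thus rest on a slope on *Alb* fitted over all 12 groups, and compare no mice of like *Alb*.

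In ligatured mice, the genotypes were also compared within diets (limma on the 18 ligatured libraries, 16653 genes). Under the ND 0 of 7 members passed (2.22% of all genes), 0 by edgeR, and 4 had an unadjusted p below 0.05, with differences of -1.76 (*Mup1*) to -4.64 (*Mup19*, SE 2.13, limma's adjusted p = 0.287), where plasma protein genes had a median of -3.98. Of the 3 CCL19-KI mice 2 were low in *Alb*. Without the third, ligatured ND CCL19-KI mouse 1, 5 members passed, and without the 2 low libraries the differences of all 7 members were above 0, from 0.33 to 1.99. Under the 40% HFD 0 of 7 passed (0.042% of all genes), 0 by edgeR and 0 with an unadjusted p below 0.05, with differences of -1.99 (*Mup15*) to 1.08 (*Mup3*).

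The ligature gave no member that passed. Over all 36 mice the differences were -0.98 (*Mup15*) to 0.35 (*Mup3*), and by edgeR *Mup15* was 0.19, with 0 of 7 passing (0.325% of all genes), 0 by edgeR and 0 with an unadjusted p below 0.05, and *Alb* differed by 0.75 (limma's adjusted p = 0.652). At equal *Alb* all 7 differences were below 0, from -0.28 (*Mup3*) to -1.41 (*Mup15*, SE 0.40, limma's adjusted p = 0.0664), with 0 of 7 passing (1.05% of all genes), 0 by edgeR and 5 with an unadjusted p below 0.05. Of 25 plasma protein genes 24 were also below 0, with a median of -0.23. Between 1 and 3 members, *Mup15* in each case, passed without one of unligatured ND CCL19-KI mouse 1, unligatured 40% HFD WT mouse 2 or unligatured 60% HFD CCL19-KI mice 1, 2 and 3.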

How the data were processed

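RNA of eWAT from 36 mice was sequenced. Per the labels' processing notes, the authors trimmed reads with Trimmomatic 0.38, counted them with RSEM 1.3.0 and Bowtie2 and normalized with edgeR. The notes name GRCm39, the study mm10, so coordinates here are from GENCODE M21 (GRCm38). The deposited signal values are edgeR-normalized CPM of gene-level counts, and 100% of them were whole multiples of 1 read (tolerance 0.01), from which reads were recovered. Floors of 3 reads cover counting error only. Genes with at least 1 CPM in at least 3 libraries were tested with limma 3.58.1 in R 4.3.3 on log2(value + 1), with Benjamini-Hochberg adjustment and a threshold of 0.05, a scale that understates changes of low genes. edgeR 4.0.16 on the recovered reads was an alternative, as were other pseudocounts, filters, normalizations and subsets. The fits of 30 or 16 libraries, of subsets at equal *Alb*, with *Alb* in ligatured mice and with edgeR and *Alb* were added after seeing the data. The scripts were tested on simulated data. Replicate numbers did not pair the mice, since deviations of 198 same-numbered pairs correlated at a median of -0.0153 (73 above 0.1). No pair of libraries was a duplicate (lowest chi-square per degree of freedom of 630 pairs, 15.3). Named were the members, *Alb*, other *Mup* entries, the 10 genes most alike by level and the 10 beyond *Alb*, and of each gene list up to 4 that passed between the 60% HFD and the ND at equal *Alb*, or else up to 2 of highest mean. Members and lists were chosen with earlier results of these data known.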

Additional observations from a re-analysis of the deposited data

How the results depend on the processing

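Counts of members that passed moved as follows. From the ND to the 40% HFD (7), it was 0 in the 18 ligatured mice, the 18 CCL19-KI mice and the 30 libraries with at least 100 CPM of *Alb*. From the ND to the 60% HFD (4), it was 7 with a pseudocount of 0.1 and in the 18 WT mice, 1 with a pseudocount of 5 and by edgeR, and 0 in the 18 mice without ligature, the 18 CCL19-KI mice and the 30 libraries. Between the high-fat diets (1), it was 2 in the 18 mice without ligature and 0 in the ligatured, WT and CCL19-KI mice and the 30 libraries. At equal *Alb*, it was 3 from the ND to the 40% HFD with a plasma protein score as covariate, and 1, downward, from the ND to the 60% HFD with the ratio to *Alb* (98.1% of all genes passed), in the CCL19-KI subset (10.6%) and in the 30 libraries (26.7%). Between the high-fat diets at equal *Alb* (3), it was 6 with the score, 1 with a pseudocount of 0.1 and in WT mice, and 0 with the ratio and in the ligatured, unligatured and CCL19-KI subsets. For the ligature at equal *Alb* (0), it was 1 with a pseudocount of 5, with the score and in WT mice. The cause was not tested, and subsets hold fewer samples.

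Leaving out 1 library at a time gave 7 to 7 for the 40% HFD against the ND, 1 to 7 for the 60% HFD against the ND, 0 to 2 between the high-fat diets, 0 to 1 for the genotype, 0 to 5 for the genotype in ligatured ND mice, and at equal *Alb* 0 to 1, 0 to 0 and 1 to 6 for these 3 diet comparisons, 0 to 6 for the genotype and 0 to 3 for the ligature.

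Directions turned in the following cases, mostly of differences that had not passed. From the ND to the 60% HFD, *Mup1*, *Mup7*, *Mup11*, *Mup14*, *Mup15* and *Mup19* were -2.12, -2.33, -1.01, -1.73, -2.03 and -0.78 in the CCL19-KI subset and -0.33, -0.61, -0.35, -0.81, -0.89 and -0.21 in the 30 libraries. Between the high-fat diets, *Mup1*, *Mup3* and *Mup14* were 0.012, 0.83 and 0.013 in ligatured mice and *Mup3* 0.86 in WT mice. For the genotype, *Mup3* was 0.36 by edgeR and 0.30 in unligatured mice, where *Mup15* was 0.045. For the ligature, *Mup19* was -0.047 and -0.11 with pseudocounts of 0.1 and 5 and -0.00088 with median-of-ratios factors, *Mup1*, *Mup7*, *Mup11*, *Mup14* and *Mup15* were 0.54, 1.03, 0.80, 0.67 and 0.19 by edgeR and 0.017, 1.01, 1.08, 0.80 and 0.21 in WT mice, and *Mup3* and *Mup19* were -0.61 and -1.15 in the CCL19-KI subset and -0.72 and -1.03 in the 30 libraries. For the genotype in ligatured ND mice, *Mup1* and *Mup7* were 0.13 and 0.17 by edgeR, the 7 members, in the order of their numbers, were 1.99, 0.33, 1.82, 0.49, 0.58, 1.06 and 1.06 in 16 libraries, and all but *Mup3* were 1.69, 0.60, 0.11, 0.20, 1.25 and 0.52 with *Alb* as covariate, where *Mup3* was -0.055 under the 40% HFD. From the ND to the 40% HFD at equal *Alb*, *Mup1*, *Mup3* and *Mup14* were -0.70, -0.21 and -0.24 as a ratio to *Alb*, and *Mup1* -0.34 in the CCL19-KI subset. From the ND to the 60% HFD at equal *Alb*, *Mup3*, *Mup11*, *Mup14* and *Mup19* were 0.19, 0.026, 0.032 and 0.26 with a pseudocount of 0.1, *Mup3* 0.089 with the score and 0.063 by edgeR, *Mup1* and *Mup3* 0.094 and 0.042 in ligatured mice, *Mup19* 0.038 in unligatured mice, and *Mup1*, *Mup11* and *Mup14* 1.04, 0.064 and 0.38 in WT mice, while *Mup7* was -0.12 with a pseudocount of 5, -1.02 as a ratio, -0.043 in unligatured mice, -2.81 in the CCL19-KI subset and -1.41 in the 30 libraries.

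Leaving out 1 library at a time, these differences lay on both sides of 0. For the ligature, *Mup3* ranged from -0.054 to 0.63, *Mup11* from -0.51 to 0.16 and *Mup19* from -0.47 to 0.29. For the genotype in ligatured 40% HFD mice, *Mup3* ranged from -0.59 to 2.08, *Mup11* from -2.52 to 0.087 and *Mup19* from -2.17 to 0.61. From the ND to the 60% HFD at equal *Alb*, *Mup3* ranged from -0.38 to 0.15, *Mup7* from -0.87 to 0.99, *Mup11* from -0.96 to 0.0034 and *Mup19* from -1.04 to 0.37.

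The replicate number as a block, which did not pair the mice, left the counts at 7, 4 and 1 for the diets and gave 2 between the high-fat diets at equal *Alb*, where *Mup14* no longer passed (-1.69, limma's adjusted p = 0.0536), and changed no other call. Other filters, quantile normalization and median-of-ratios factors kept all 13 counts within 1.5 times. Quantile normalization shifted the share of higher calls among all genes, for the high-fat diets at equal *Alb* from 59.1 to 28.9%. With 3 mice a group and *Alb* spread 4851-fold, differences between single groups were not well resolved.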

Other observations

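Of the 18 other *Mup* entries, 15 genes and 3 pseudogenes, 14 passed the filter. The highest was *Mup22* (median 1649.8 CPM in the 30 libraries with at least 100 CPM of *Alb*), which lies between *Mup11* and *Mup14* and, like *Mup3*, held a steady ratio to *Alb* (r 0.97, SD of the log2 ratio 0.46). *Mup18* (r 0.972, SD 0.50) and *Mup20* (r 0.945, SD 0.66), which encodes darcin, a male pheromone protein, also followed *Alb*, whereas *Mup17* (r 0.751, SD 1.83), *Mup9* (r 0.748, SD 1.64) and *Mup2* (r 0.689, SD 1.72) varied as the looser members did. In all, 7 of the 14 had an r above 0.8. *Mup4* and *Mup5*, members of the family known from tissues other than liver, had their highest values in libraries low in *Alb* (37.6 and 15.4 CPM) and were at or below 13.2 and 1.62 CPM in the other 30.

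Several genes of the liver lists also differed between the 60% HFD and the ND at equal *Alb*. In this contrast no member passed, while 9.5% of all genes did. The genes named as changed were picked from their lists because they passed, and do not stand for a list as a whole. *Cyp3a11*, a drug-metabolising enzyme, fell by 2.18 on the log2 scale, *Pck1*, of gluconeogenesis, fell by 1.34 and *Cps1*, of the urea cycle, fell by 0.68. Among male-biased genes *Cyp4a12b* fell by 2.13 and *Cyp2u1* rose by 0.71, and among female-biased genes *Atp6v0d2* rose by 2.46, *Cyp2b9* by 2.04 and *Rtn4* by 1.05. Over the 30 libraries, r with *Alb* was only 0.54 for *Pck1*, 0.50 for *Cyp2b9*, 0.13 for *Atp6v0d2* and -0.25 for *Rtn4*. It was 0.74 for *Cyp4a12b*, 0.77 for *Cyp2u1*, 0.85 for *Cyp3a11* and 0.97 for *Cps1*. Whether the changes were those of liver RNA was not tested. *Igfals*, of the growth hormone receptor signalling list, rose by 1.10. In adipocyte genes *Cfd* fell by 2.60, *Lep* rose by 2.25 and *Cd36* by 0.78, the pancreas gene *Cela1* rose by 1.15 and the macrophage gene *Cd68* by 0.95. None passed among the lists of plasma proteins (*Trf* -0.41), lipocalins (*Rbp4* -0.34), non-parenchymal liver cells (*Krt19* -0.21), kidney tubule (*Kap* 1.28) and epididymis (*Crisp1* -1.73).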
